A study of Mus musculus with 7 samples.

Results

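Integrins are cell surface receptors made of 1 alpha and 1 beta chain, and 10 genes of the chains carried by leukocytes are described here: Itgax, Itgam, Itgal, Itgad, Itgae, Itga4 and Itgav for alpha chains and Itgb2, Itgb1 and Itgb7 for beta chains. The members were chosen by name, as the chain of the sorting marker CD11c (Itgax) and its relatives, and every probe set annotated to one of them alone was taken. Of the 10 genes, 9 were measured, by 18 of the 22625 probe sets tested. No probe set of the annotation used here names Itgad, so that gene was not analysed here. A single probe set measured each of 6 genes, while Itga4 and Itgav had 3 each and Itgb1 had 6.

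The RNA came from cells of mouse spleen bound by magnetic sorting for CD11c (MACS), taken on day 7 after allo-HSCT, the grafting of blood stem cells from a donor that is not genetically identical. The groups were 3 arrays labelled Atg16L1 hypomorphic and 4 labelled WT, all on the C57BL/6J background, and the comparison asks which transcripts differ with a lowered function of the autophagy gene Atg16l1. Mice were 8 weeks old by the series text, whereas the growth protocol has 9 weeks. The labels leave unsaid if host, graft or both carried the hypomorphic allele, so the genotype of the sorted cells themselves is not known from them. Nor do they say that the arrays are different animals, and the p-values therefore measure only the spread between these arrays.

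An integrin reaches the cell surface only as a pair of chains, and the pair sets what it binds. Itgal, Itgam, Itgax and Itgad encode alpha chains that all pair with the beta-2 chain of Itgb2, giving LFA-1, Mac-1, CD11c/CD18 and CD11d/CD18. Itga4 pairs with Itgb1 to bind VCAM-1 and with Itgb7 to bind MAdCAM-1 in the gut, and Itgae pairs with Itgb7 to bind E-cadherin. Itgav pairs with Itgb1 and several other beta chains, and among its ligands is the latent form of TGF-beta. In the spleen, CD11c marks dendritic cells but is also found on some macrophages, monocytes, NK cells and activated T cells. CD11b (Itgam) marks monocytes, neutrophils, some macrophages and one lineage of dendritic cells, and CD103 (Itgae) marks part of the CD8 lineage of dendritic cells and some T cells.

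Itgam and Itgax are next to each other on chromosome 7 in the RefSeq gene order, with 0 protein-coding genes between them, and Itgad follows Itgax directly. Their promoters are shown because these neighbouring genes had their lowest values on the same arrays, as described below. RefSeq promoter windows (GRCm38.p6) were given for 6 of the 10 members. The bases before the earliest annotated transcript start of each gene are printed 5′ to 3′, from chr7:128062390-128062639 for Itgam and chr7:128129300-128129525 for Itgax, both on the plus strand, and capitals mark the motifs found. The Itgax window itself runs on to 128129549, and its last bases, which lie past that earliest start, are not printed but were searched.
Itgam: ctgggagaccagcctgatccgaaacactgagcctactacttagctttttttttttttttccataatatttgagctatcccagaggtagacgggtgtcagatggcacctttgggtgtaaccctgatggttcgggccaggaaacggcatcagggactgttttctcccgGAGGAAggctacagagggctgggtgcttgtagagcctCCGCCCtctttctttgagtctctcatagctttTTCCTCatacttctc
Itgax: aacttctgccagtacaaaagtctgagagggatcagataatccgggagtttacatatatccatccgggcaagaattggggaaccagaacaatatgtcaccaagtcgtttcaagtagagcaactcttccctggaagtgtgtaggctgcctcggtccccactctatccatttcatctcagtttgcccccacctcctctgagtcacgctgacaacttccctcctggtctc
The motifs searched on both strands were GAGGAA, the core bound by the myeloid factor PU.1, TGTGGT, bound by RUNX factors, and GGGCGG, bound by Sp1, with no overlap between matches. Over the 250 bases before the window's start site, the Itgam window held GAGGAA on the plus strand at positions -84 to -79 from the start and on the minus strand (as TTCCTC) at -15 to -10, and GGGCGG on the minus strand (as CCGCCC). The Itgax window held none of these letters. Among 32851 windows of the same length, 23.25% held the PU.1 core, 14.05% the RUNX core and 32.74% the Sp1 core. A match describes letters and is no measured binding.

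Values are log2, and the medians of the 7 arrays ran from 5.46 to 5.53 and their lower quartiles from 3.31 to 3.39. They carry no detection call, so a probe set below the lower quartile on an array is described here as near the bottom of the scale. Atg16l1, the gene named in the label, read 6.86, 6.76 and 6.94 on the hypomorph arrays and 7.42, 7.33, 7.26 and 7.20 on the wild-type arrays, without overlap. Its log2 difference was -0.45 (limma adjusted p = 0.462). The position of this probe set within the gene was not analysed here, which limits it as a check of the labels. Besides dendritic cell genes, the arrays carried marker transcripts of other cells. The T cell gene Cd3e read 6.79 to 7.51, the macrophage factor Spic 10.43 to 11.61 and the neutrophil gene S100a8 13.40 to 13.88 over the 7 arrays, so the sorted cells were not dendritic cells alone. The NK cell receptor Ncr1 was below the lower quartile on all 7 arrays, the only 1 of 11 measured NK and cytotoxic cell genes that was. Ncr1 alone therefore does not show that NK cells were absent. In such bulk RNA, fewer cells of a type and less RNA per cell cannot be told apart.

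No integrin chain differed between hypomorph and wild type beyond the spread of the arrays. With limma fitted across the whole array, 0 of the 18 member probe sets had an adjusted p under 0.05, against 0.0% of all 22625 (0 probe sets), and their adjusted p ran from 0.644 to 0.993. At an unadjusted p under 0.05 there was 1 of 18, against 7.69% of all probe sets (1739), and it was a probe set of Itga4 that was higher in the hypomorph (background 4.35% higher and 3.34% lower). The groups did not overlap for 0 of the 18, against 5.57% of all probe sets (3.07% with the hypomorph above and 2.5% below). The log2 difference, hypomorph minus wild type, was positive for 13 and negative for 5, against 50.6% positive over all probe sets. Its median was 0.07 beside 0.00 over all probe sets. In this fit the shares called or without overlap are near or below the background and show nothing particular to integrins. The share of positive differences was above the background and was not tested, and several probe sets of 1 gene are counted apart in it. The counts moved with the arrays used. With single arrays left out, the members with an unadjusted p under 0.05 numbered 0 to 2. Those without overlap numbered 0 to 3 of 18, against 7.71% to 21.4% of all probe sets. Over all probe sets, the 1739 became 1095 without hypomorph replicate 1 and 2989 without hypomorph replicate 2. With each array centred on its median, 2 of the 18 did not overlap, against 6.07% of all probe sets.

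**Figure D1:**
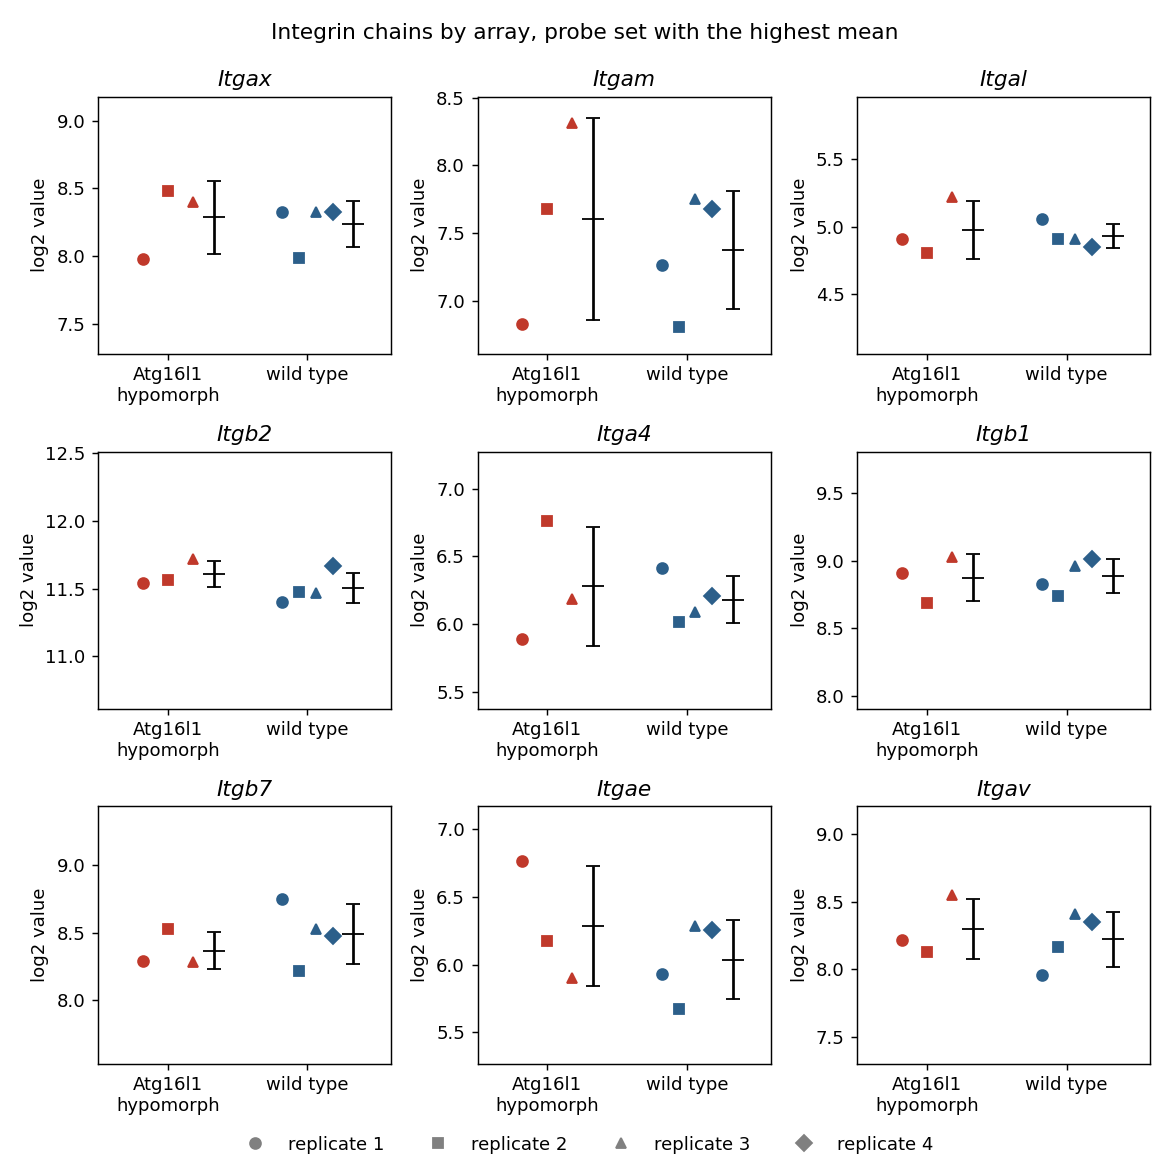
Log2 value of each measured integrin chain on each array (vertical axes, each spanning the same log2 range; points are arrays, the shape gives the replicate number), with the mean and SD of 3 hypomorph arrays (red, left) and 4 wild-type arrays (blue, right); the probe set with the highest mean stands for the gene. The groups overlap in every panel, and the spread is widest for Itgam, from 6.80 to 8.31.

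**Figure D2:**
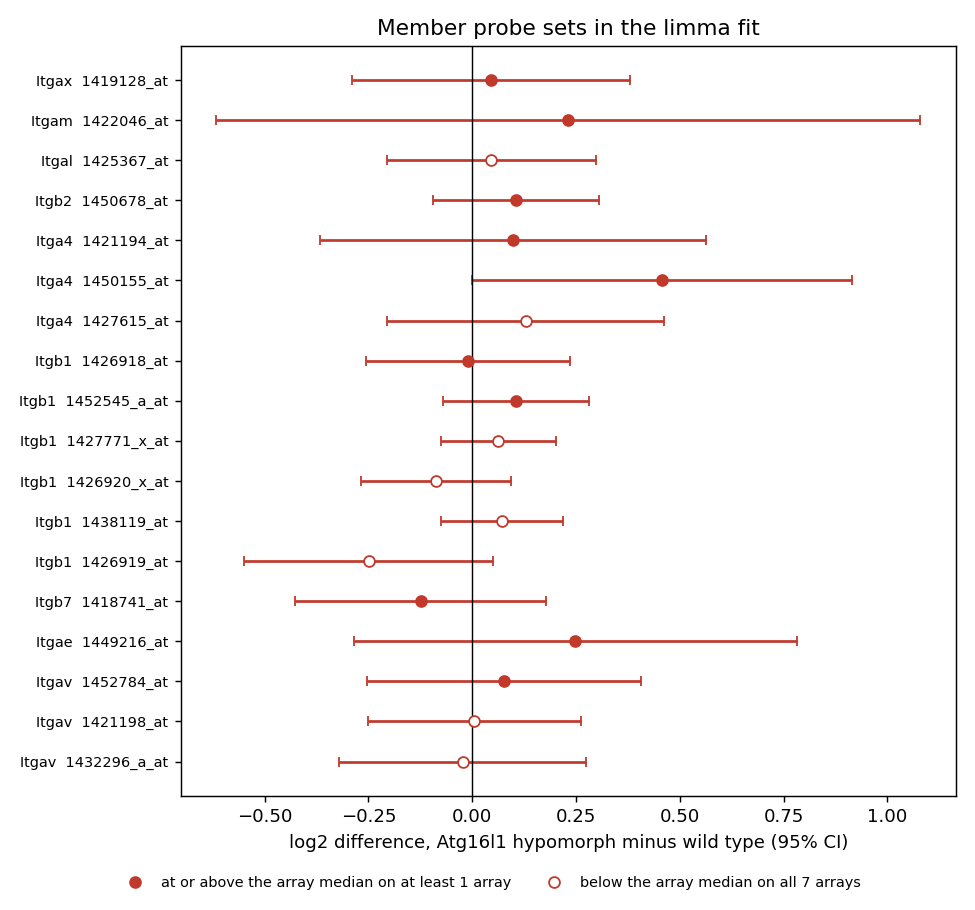
Log2 difference of hypomorph minus wild type for the 18 member probe sets (horizontal axis; points are limma estimates, bars 95% confidence intervals; open points are probe sets below the array median on all 7 arrays). All intervals include 0 except that of the Itga4 probe set 1450155_at, whose lower end is at 0.00 and whose adjusted p is 0.644.

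Itgax, the gene of the sorting marker CD11c, was measured by 1 probe set. It read 7.98, 8.48 and 8.40 on the hypomorph arrays and 8.32, 7.98, 8.33 and 8.33 on the wild-type arrays. One array of each group, hypomorph replicate 1 and wild-type replicate 2, lay at 7.98, and the other 5 lay between 8.32 and 8.48. The means were 8.29 ± 0.268 (SD, n = 3) in the hypomorph and 8.24 ± 0.170 (SD, n = 4) in wild type. The log2 difference was 0.05, with a 95% confidence interval from -0.29 to 0.38 (limma adjusted p = 0.946). Changes of more than 1.22-fold lower or 1.30-fold higher lie outside this interval. With single arrays left out the difference ran from -0.05 (hypomorph replicate 2) to 0.20 (hypomorph replicate 1), where its interval ran from -0.09 to 0.49. It was also negative without hypomorph replicate 3 (-0.01) or wild-type replicate 2 (-0.04), so it had no settled direction. Cells were sorted on the CD11c protein, and the part of the sort in the Itgax level was not tested. The medians of the dendritic cell list, 19 of 22 genes measured, stayed between -0.13 and 0.04 relative to the wild-type mean on all 7 arrays, and were -0.03 and 0.04 on the arrays with low Itgax. The summed linear level of that list was 9939 to 13347 in the hypomorph and 9017 to 11207 in wild type, and none of its measured genes lay below the lower quartile on all arrays.

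Itgam, the alpha chain CD11b of Mac-1 that binds complement-coated particles and ICAM-1, varied most from array to array. It read 6.83, 7.68 and 8.31 on the hypomorph arrays and 7.26, 6.80, 7.75 and 7.68 on the wild-type arrays. Hypomorph replicate 3 was the highest array and hypomorph replicate 1 the second lowest, so the hypomorph arrays enclosed 3 of the 4 wild-type arrays. The lowest and highest array differed 2.85-fold, and the SD within groups (0.581) was at or above that of 97.6% of the 1001 probe sets nearest in mean. The group means were 7.61 ± 0.747 (SD, n = 3) in the hypomorph and 7.37 ± 0.437 (SD, n = 4) in wild type. The log2 difference was 0.23, with a 95% confidence interval from -0.62 to 1.08 (limma adjusted p = 0.880), so changes of 1.53-fold lower or 2.11-fold higher are not outside it. Leaving out hypomorph replicate 3 turned the difference to -0.12, and leaving out hypomorph replicate 1 raised it to 0.62.

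The same arrays were low for Itgam and Itgax. Relative to the wild-type mean, Itgam was at -0.55 on hypomorph replicate 1 and -0.57 on wild-type replicate 2, where Itgax was at -0.26 on both. Wild-type replicate 1 was at -0.11 for Itgam but 0.08 for Itgax, and each other array was above 0 for both genes.

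Of 3 myeloid marker lists set beside Itgam, the monocyte list had the sign of Itgam on 7 of 7 arrays, the neutrophil list on 6 and the red pulp macrophage list on 4. The monocyte list, with 8 of 10 genes measured and none below the lower quartile on all arrays, had medians of -0.32, 0.16 and 0.28 on the hypomorph arrays and -0.08, -0.12, 0.08 and 0.28 on the wild-type arrays. Its medians were above 0 on the same 4 arrays as Itgam (hypomorph replicates 2 and 3, wild-type replicates 3 and 4) and below 0 on the other 3. Single genes of the list did not all take these signs, and 3 of its genes had a positive and 5 a negative difference. Its summed linear level was 21551 to 29787 in the hypomorph and 22650 to 27261 in wild type. The neutrophil list, 12 of 12 measured, had medians of -0.90, -0.63 and 0.06 in the hypomorph and -0.07, -0.02, 0.09 and 0.01 in wild type, with summed levels of 40646 to 70324 and 63550 to 71176. It was low on hypomorph replicate 2, where Itgam was at 0.30, and near 0 on wild-type replicate 2, where Itgam was at -0.57. The red pulp macrophage list, 11 of 12 measured, ran from 0.15 to 0.41 in the hypomorph and from -0.51 to 0.42 in wild type, with summed levels of 34135 to 41154 and 22984 to 40411, and was at 0.41 on hypomorph replicate 1, where Itgam was low. The part of these cells in the Itgam values was not tested, and the lists were set beside Itgam after its values were seen.

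**Figure D3:**
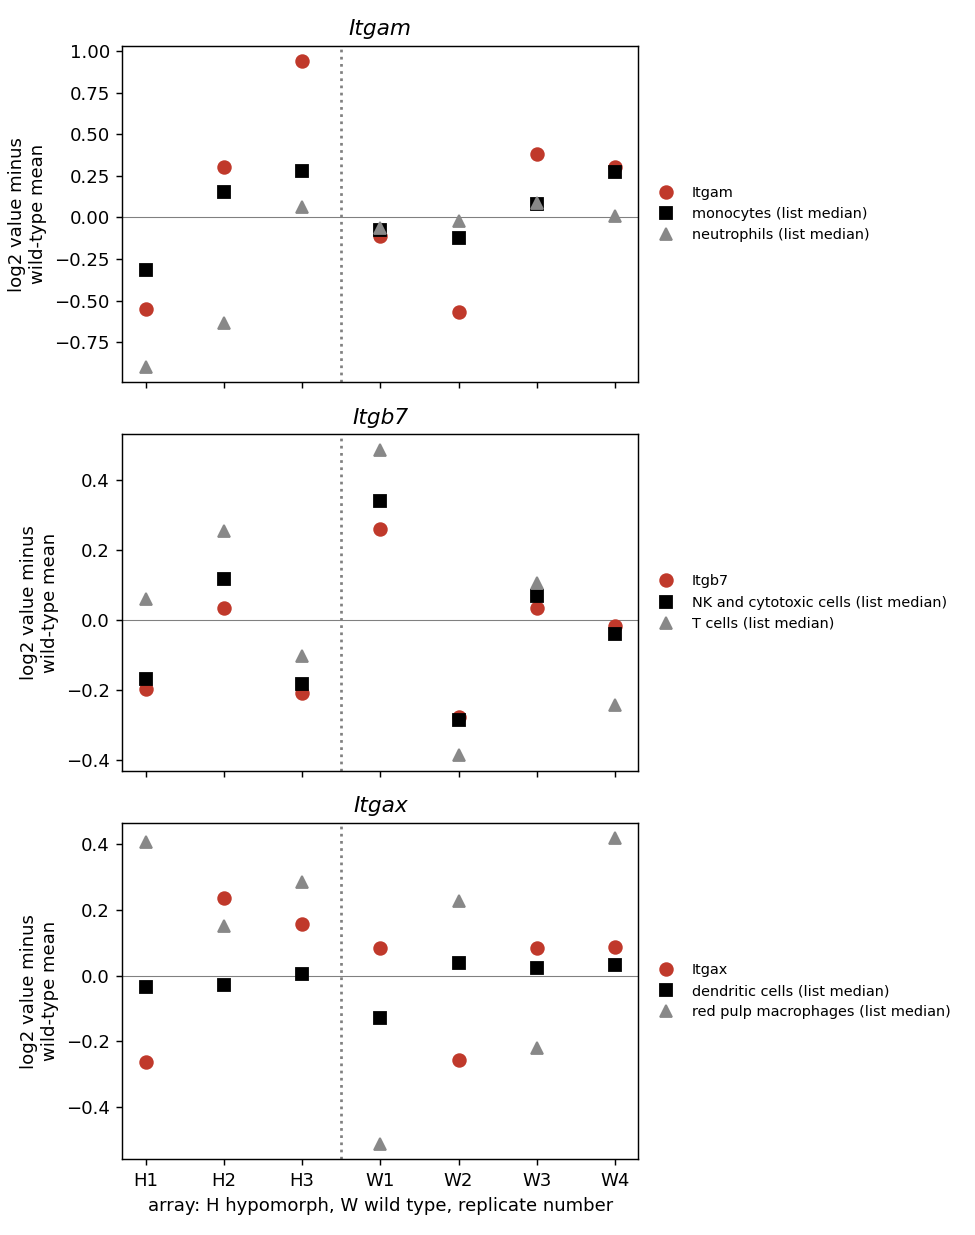
Itgam (top), Itgb7 (middle) and Itgax (bottom) on each array beside the medians of 2 cell marker lists, as log2 value minus the wild-type mean (vertical axes; arrays along the horizontal axis, hypomorph left of the dotted line). Itgb7 lies within 0.0818 of the NK and cytotoxic cell list on all 7 arrays, Itgam has the sign of the monocyte list on each array, and the dendritic cell list stays near 0 while Itgax drops to -0.26 on hypomorph replicate 1 and wild-type replicate 2.

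Itgal encodes CD11a, the alpha chain of LFA-1, by which leukocytes hold on to ICAM-bearing cells. It read 4.91, 4.81 and 5.22 on the hypomorph arrays and 5.06, 4.91, 4.91 and 4.85 on the wild-type arrays. All 7 values were below the array medians and above the lower quartiles, and the hypomorph values enclosed those of wild type. The log2 difference was 0.05, with a 95% confidence interval from -0.21 to 0.30 (limma adjusted p = 0.923), and it was -0.07 without hypomorph replicate 3.

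Itgb2, the beta-2 chain CD18 shared by all CD11 integrins, read 11.54, 11.57 and 11.72 on the hypomorph arrays and 11.40, 11.48, 11.47 and 11.67 on the wild-type arrays. The hypomorph arrays lay above 3 of the 4 wild-type arrays, and wild-type replicate 4 lay among them. The SDs were 0.0973 (n = 3) in the hypomorph and 0.113 (n = 4) in wild type, around a log2 difference of 0.11 with a 95% confidence interval from -0.09 to 0.31 (limma adjusted p = 0.750). This is a narrow interval, from 1.07-fold lower to 1.24-fold higher. The 7 arrays of this shared chain spanned 1.25-fold, while those of its partner Itgam spanned 2.85-fold. Values of different probe sets are not set against each other as levels.

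Itga4, the alpha-4 chain that tethers cells to VCAM-1 or MAdCAM-1, was measured by 3 probe sets that differed. The brightest, 1421194_at, read 5.89, 6.76 and 6.19 on the hypomorph arrays and 6.41, 6.02, 6.08 and 6.20 on the wild-type arrays. Hypomorph replicate 2 was highest and hypomorph replicate 1 lowest. Its log2 difference was 0.10 (95% confidence interval -0.37 to 0.56, limma adjusted p = 0.911), and -0.14 without hypomorph replicate 2. The second, 1450155_at, read 5.81, 5.77 and 5.21 on the hypomorph arrays and 5.26, 4.71, 5.28 and 5.28 on the wild-type arrays. Here hypomorph replicate 1 was highest, where the first probe set was lowest, and hypomorph replicate 3 lay below 3 of the 4 wild-type arrays. Its difference of 0.46 (95% confidence interval 0.00 to 0.91) was the member probe sets' largest and the 1 with an unadjusted p under 0.05 (limma unadjusted p = 0.0499, adjusted p = 0.644). The third, 1427615_at, read 3.08 to 3.74 in the hypomorph and 3.21 to 3.33 in wild type, below the lower quartile on 5 of 7 arrays, with a difference of 0.13. Which of the transcript's ends or forms each probe set reads was not analysed here.

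Itgb7 pairs with both Itga4 and Itgae. Distances to chosen cell lists were taken for Itgb7, Itgam, Itgax and Itgae only. Among these, Itgb7 lay closest to a list, that of NK and cytotoxic cells (largest distance 0.0818 over the 7 arrays). Genes with a small spread give smaller distances. Itgb7 read 8.29, 8.53 and 8.28 on the hypomorph arrays and 8.75, 8.22, 8.53 and 8.47 on the wild-type arrays. Wild-type replicate 1 was highest and wild-type replicate 2 lowest, so the wild-type arrays enclosed the hypomorph arrays. Hypomorph minus wild type came to -0.12 on the log2 scale, with a 95% confidence interval from -0.43 to 0.18 (limma adjusted p = 0.804), and it stayed between -0.22 and -0.04 with any 1 array left out.

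Relative to the wild-type mean, Itgb7 was at -0.20, 0.03 and -0.21 on the hypomorph arrays and at 0.26, -0.28, 0.03 and -0.02 on the wild-type arrays. The list of NK and cytotoxic cells, led by granzymes, perforin and killer lectin receptors, had medians of -0.17, 0.12 and -0.18 in the hypomorph and 0.34, -0.29, 0.07 and -0.04 in wild type. The T cell list had medians of 0.06, 0.26 and -0.10 in the hypomorph and 0.49, -0.39, 0.11 and -0.24 in wild type. For Itgb7 and both lists, wild-type replicate 1 was the highest array, hypomorph replicate 2 the next (for Itgb7 level with wild-type replicate 3 at the second decimal) and wild-type replicate 2 the lowest. Of the cytotoxic list 11 of 12 genes were measured, with Ncr1 below the lower quartile on all arrays, and its summed linear level was 19262 to 22659 in the hypomorph and 17483 to 25439 in wild type. Of the T cell list 8 of 12 were measured, with none that low, and summed levels of 3068 to 3844 and 2492 to 4601. Itgb7 is known on T cells and NK cells as well as on dendritic cells and mast cells. The basophil and mast cell list, 8 of 10 measured, had medians of -0.62, -0.54 and -0.94 in the hypomorph and -0.08, -0.07, -0.40 and 0.40 in wild type, with the sign of Itgb7 on 3 of 7 arrays. All 8 of its differences were negative, where 50.6% of all probe sets were positive, and 4 were without overlap, against 5.15% of all genes. Its summed level was 509 to 599 in the hypomorph and 871 to 1702 in wild type. The part of these cells in the Itgb7 values was not tested, and the lists were set beside it after its values were seen.

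Itgae encodes CD103, the alpha chain that pairs with Itgb7. It read 6.77, 6.18 and 5.90 on the hypomorph arrays and 5.93, 5.67, 6.28 and 6.26 on the wild-type arrays. Hypomorph replicate 1 was the highest by 0.487 log2 units, while hypomorph replicate 3 was the second lowest. The means were 6.28 ± 0.442 (SD, n = 3) in the hypomorph and 6.03 ± 0.292 (SD, n = 4) in wild type. The log2 difference was 0.25, with a 95% confidence interval from -0.29 to 0.78 (limma adjusted p = 0.780), and it was 0.01 without hypomorph replicate 1. Itgae and its partner Itgb7 lay on the same side of their own means over the 7 arrays on 5 of them, hypomorph replicates 2 and 3 and wild-type replicates 2, 3 and 4. They differed on the other 2. On hypomorph replicate 1, Itgae was at 0.73 relative to the wild-type mean and Itgb7 at -0.20, and on wild-type replicate 1 Itgae was at -0.10 and Itgb7 at 0.26. On wild-type replicate 2 both were at their lowest. On hypomorph replicate 1, the array with the highest Itgae, the T cell list was at 0.06 and the dendritic cell list at -0.03 by its median. The summed linear level of the dendritic cell list was highest on that array, at 13347, against 9939 and 10386 on the other hypomorph arrays and 9017 to 11207 on the wild-type arrays. That sum weighs bright genes most. The brightest, H2-Aa, named after its values were seen, read 12.41 there and 11.88 to 12.06 in wild type. The defining genes Flt3 and Zbtb46 read 6.81 and 5.33 there, within the wild-type ranges of 6.28 to 6.99 and 5.32 to 5.75. The part of dendritic cells in the Itgae value was not tested.

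Itgb1, the beta-1 chain that pairs with many alpha chains, had 6 probe sets, of which 2 read above the array medians. The brighter, 1426918_at, read 8.91, 8.69 and 9.02 on the hypomorph arrays and 8.83, 8.74, 8.96 and 9.02 on the wild-type arrays, with groups that lay on top of each other. Its log2 difference was -0.01 (95% confidence interval -0.26 to 0.23, limma adjusted p = 0.984), with a sign that depended on single arrays: it was 0.08 without hypomorph replicate 2, 0.02 without wild-type replicate 3 and 0.03 without wild-type replicate 4. The other, 1452545_a_at, read 8.62, 8.57 and 8.51 on the hypomorph arrays and 8.40, 8.46, 8.38 and 8.60 on the wild-type arrays. Its hypomorph arrays lay above 3 of the 4 wild-type arrays, with a difference of 0.11 (95% confidence interval -0.07 to 0.28, limma adjusted p = 0.718). Of the remaining 4, the probe set 1427771_x_at read 4.36 to 4.52 over all arrays and 3 read below the lower quartile on all 7. Those 3 include the probe set with the most negative difference of any member, 1426919_at, which read 2.27 to 2.36 in the hypomorph and 2.36 to 2.85 in wild type, a difference of -0.25 at the bottom of the scale.

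Itgav, the alpha-v chain that binds vitronectin, apoptotic cells through bridging proteins and latent TGF-beta, was led by probe set 1452784_at. It read 8.21, 8.13 and 8.55 on the hypomorph arrays and 7.96, 8.16, 8.41 and 8.35 on the wild-type arrays. Hypomorph replicate 3 was highest and wild-type replicate 1 lowest, and the groups overlapped. This gave a log2 difference of 0.08 (95% confidence interval -0.25 to 0.41, limma adjusted p = 0.903), -0.05 without hypomorph replicate 3 and -0.01 without wild-type replicate 1. The other probe sets of Itgav, with differences of 0.00 and -0.02, read below the array medians on all 7 arrays.

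**Figure D4:**
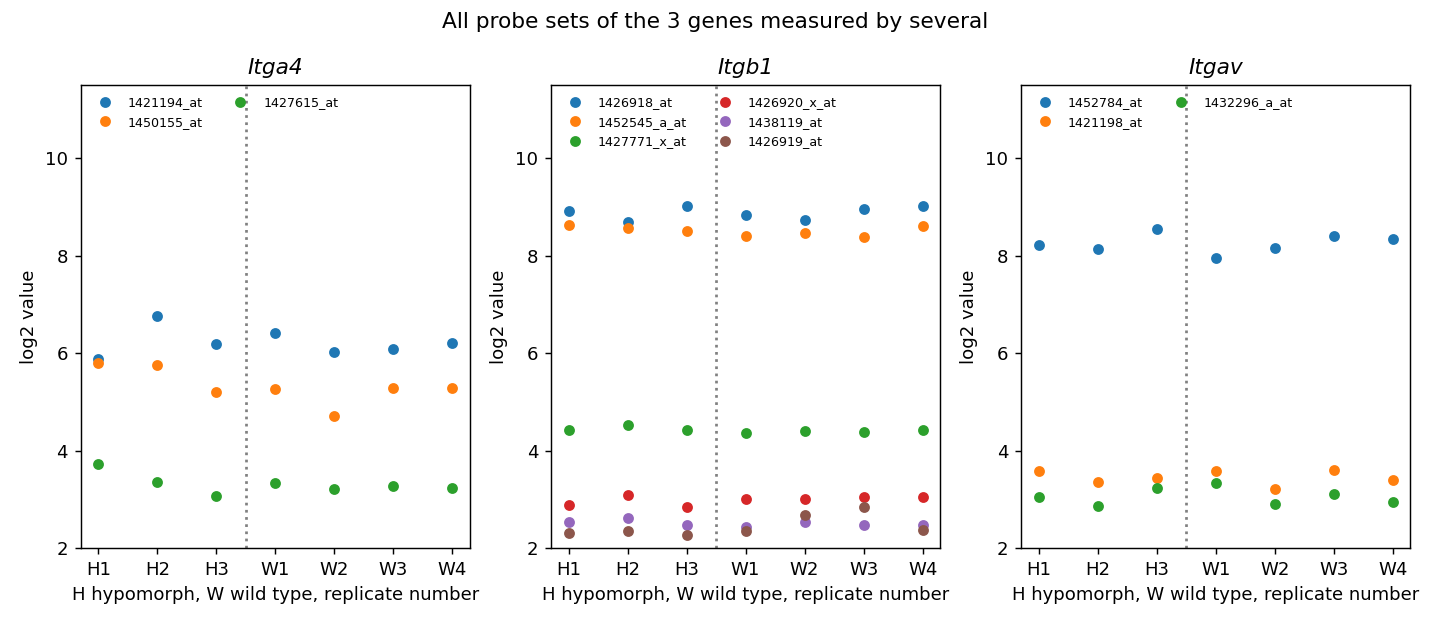
Log2 value of every probe set of Itga4, Itgb1 and Itgav on each array (vertical axes; H hypomorph, W wild type, with the replicate number; 1 colour per probe set). The leading probe sets of Itga4 differ in which array is highest, 2 of the 6 probe sets of Itgb1 lie above 8, and 1 of the 3 of Itgav does.

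Partner chains were set side by side by the mean absolute difference of mean-centred log2 values over the 7 arrays, where 0 is the same pattern and genes with a wide spread give larger values. It was 0.159 for Itgax with Itgb2, 0.372 for Itgam with Itgb2, 0.118 for Itgal with Itgb2, 0.0991 for Itgav with Itgb1, 0.278 for Itga4 with Itgb1, 0.168 for Itga4 with Itgb7 and 0.259 for Itgae with Itgb7. The count of arrays on the same side of both means orders the pairs otherwise. It was 6 of 7 for Itgam with Itgb2 and for Itgav with Itgb1, 5 for Itgax with Itgb2, Itga4 with Itgb7 and Itgae with Itgb7, 4 for Itgal with Itgb2 and 1 for Itga4 with Itgb1. The neighbours Itgam and Itgax differed by 0.301 and also lay on the same side on 6 of 7 arrays, as did pairs on different chromosomes. Among probe sets of other single genes with at least the member's SD, the 3 closest to Itgax were Cdk5r1 (0.0406), Arhgap4 (0.0499) and Ddr1 (0.0532), out of 5603. Cdk5r1 read 4.15 to 4.71 and Ddr1 3.93 to 4.58, below the array medians on all 7 arrays. Cdk5r1 held the same tied value of 4.57 on wild-type replicates 1, 3 and 4. The 3 closest to Itgb2 were Gnpda1 (0.0315), Abr (0.0327) and Abcf3 (0.0356), out of 13441. For Itgae they were Fgl2 (0.105), Bbx (0.105) and Gng2 (0.168), out of 1355. For Itgam they were Plin2 (0.235), Jchain (0.276) and Angptl4 (0.280), out of 412. Nothing on shared function or control follows from this likeness.

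The other integrin chains, integrin activators and integrin ligands also showed no call in the limma fit. With 1 probe set per gene, 0 of 12 measured other chains (of 16 listed), 0 of 22 activation and adaptor genes (of 24) and 0 of 22 ligands (of 25) had an adjusted p under 0.05, against 0.0% of all 12393 genes. At an unadjusted p under 0.05 there were 1 higher and 0 lower among other chains, 0 higher and 1 lower among activators, and 3 higher and 0 lower among ligands, against 7.17% of all genes (888). The median log2 differences were -0.01, -0.02 and 0.01. Groups did not overlap for 1, 2 and 1 genes, against 5.15% of all genes.

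Of the other chains, Itga8, found mostly on mesenchymal cells, had the smallest p, but it read 2.38 to 2.70, below the lower quartile on all 7 arrays. Itga9 read 7.06, 6.29 and 7.17 on the hypomorph arrays and 5.54, 6.60, 6.21 and 6.57 on the wild-type arrays, with differences of 0.61, 0.55 and 0.06 over its 3 probe sets (limma adjusted p = 0.653 for the first). Its lowest array, wild-type replicate 1, was also the lowest of the red pulp macrophage list, at -0.51. The megakaryocyte and platelet chains Itga2b and Itgb3 had differences of -0.25 and -0.09 (limma adjusted p = 0.676 and 0.726). Itga2b read 6.19, 6.18 and 5.67 on the hypomorph arrays, against 6.48 on wild-type replicate 1 and 6.19 on each of the other wild-type arrays.

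Among activators, Vcl, which encodes vinculin, the link between integrin adhesions and actin, had the smallest p. It read 7.18, 7.99 and 7.90 on the hypomorph arrays and 8.24, 8.68, 8.56 and 8.47 on the wild-type arrays, so every hypomorph array lay below every wild-type array. The log2 difference was -0.80, 1.74-fold lower, with a 95% confidence interval from -1.27 to -0.33 (limma adjusted p = 0.644). The basophil and mast cell list (8 of 8 measured genes negative, summed levels as given above) was also lower in the hypomorph. The neutrophil list had 12 of 12 genes negative, and of all probe sets 50.6% were positive. Its summed level was 40646 on hypomorph replicate 1, the lowest array for Vcl too. On hypomorph replicate 3 that level was 70324, within the wild-type range of 63550 to 71176, while Vcl read 7.90. The part of these cells in the Vcl values was not tested. Another probe set of Vcl was below the lower quartile on all 7 arrays, with a difference of -0.06. The affixin gene Parvb, an actin-linking partner of integrin-linked kinase, had a difference of 0.21 (limma adjusted p = 0.662). It read 3.28 to 3.81, below the lower quartile on 2 of the 7 arrays. Cyth1, a regulator of beta-2 integrin adhesion, had 0.50 and 0.34 over its 2 probe sets (limma adjusted p = 0.666 for the first). The second of these read 3.43 to 4.17, below the array medians on all 7 arrays. Tln1 and Fermt3, which encode talin and kindlin-3 and switch integrins on from inside the cell, had differences of -0.13 and -0.12, and both were named after their values were seen.

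Among ligands, Vcam1, which binds the alpha-4 integrins and marks red pulp macrophages, read 13.16, 12.99 and 13.13 on the hypomorph arrays and 12.61, 12.88, 12.86 and 13.03 on the wild-type arrays. Its log2 difference was 0.25 (limma adjusted p = 0.644), and 0.32 and 0.40 with its other probe sets. Icam1, the ligand of LFA-1 and Mac-1, had a difference of 0.14 with a 95% confidence interval from -0.34 to 0.62 (limma adjusted p = 0.874). Tgfb2, which encodes a cytokine of the TGF-beta family, had differences of 0.71, 0.01 and 0.39 over 3 probe sets (limma adjusted p = 0.644 for the first). Col4a1, a basement membrane collagen bound by beta-1 integrins, had 0.57 and 0.48, both without overlap (limma adjusted p = 0.644 for the first). The stroma and endothelium list, 10 of 10 measured with Tek and Col1a1 below the lower quartile on all arrays, had medians of 0.42, 0.13 and 0.30 in the hypomorph and -0.20, 0.29, 0.02 and -0.08 in wild type. Its summed linear level was 414 to 584 in the hypomorph and 246 to 441 in wild type, and the part of such cells in the Col4a1 values was not tested. Fn1 and Icam4, named after their values were seen, had differences of -0.62 and -0.50.

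**Figure D5:**
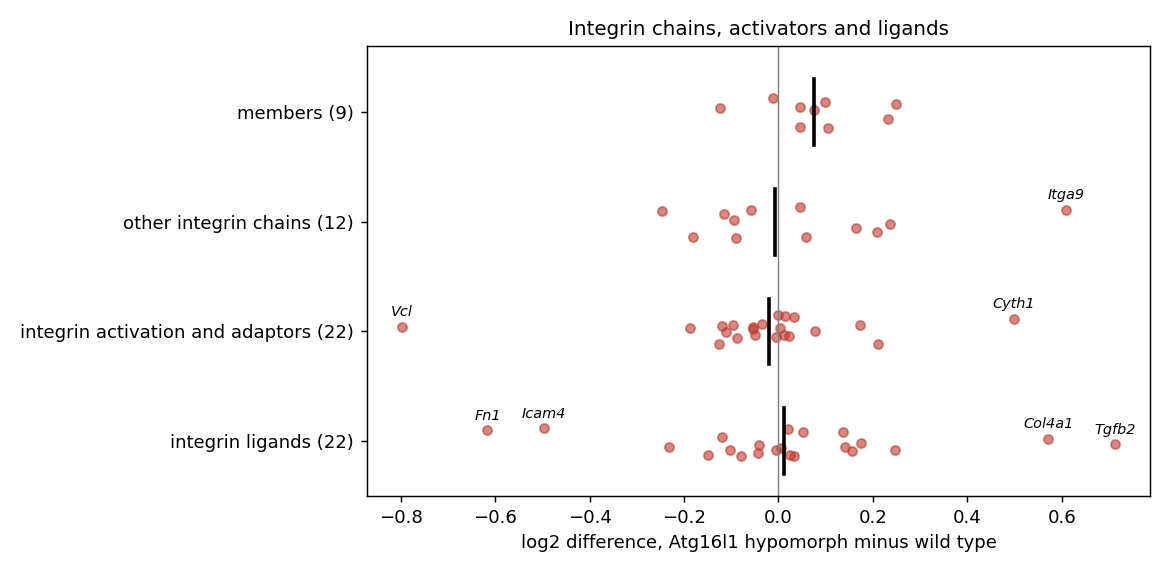
Log2 difference of hypomorph minus wild type (horizontal axis) for the 9 measured members and 3 lists of related genes, 1 point per gene (the probe set with the highest mean) and a black bar at the list's median; numbers in brackets are the measured genes. The members lie between -0.12 and 0.25, with Vcl at -0.80 and Tgfb2 at 0.71 the farthest out among the related genes, and no gene shown has an adjusted p under 0.05.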

How the data were processed

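For each Affymetrix Mouse430A array the authors deposited log2 values by probe set, and the submitters' processing notes name Affymetrix Power Tools. Its version, the summary method and the normalization: not given in the sources used here. Nearly equal quartiles show that the arrays had been normalized, and how is unknown. The values were used as deposited. Of 22690 rows, 64 control probe sets and 1 row with no value were left out, leaving 22625. Gene names came from the array's annotation, updated by Entrez identifier in a RefSeq table (GRCm38.p6). That table served only for names, gene order and the earliest transcript starts at which the printed promoters end. Of the probe sets, 20379 named 1 gene, 691 several and 1555 none, and none of the 691 held a member.

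The test was limma 3.58.1 (R 4.3.3) on the 2 groups without a block, by lmFit and eBayes. Its p-values were adjusted by Benjamini-Hochberg across the 22625 probe sets, at a threshold of 0.05. The step was tested on simulated data. List medians and summed linear levels used the probe set with the highest mean per gene. Members and lists were chosen with earlier results of these data known. The rule for naming genes took all members, from each related list the 3 genes with the smallest p, Itga2b, Itgb3, Icam1 and Vcam1, and the 3 genes closest in pattern to Itgax, Itgam, Itgae and Itgb2. Precision is limited by how few arrays there are. The alternatives were other normalizations, variance models, a pseudocount of 32, a filter on low values, the mean over probe sets, a replicate block and leaving out each array.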

Additional observations from a re-analysis of the deposited data

Results flagged for a closer look

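In 30 sets of 4 wild-type values tested, 3 had an array whose gap to the nearest other, divided by the range, exceeded Dixon's 95% critical value. Chance flags about 1 in 20 for normally distributed values without ties. The deposited values hold ties, so the flagged share is not strictly comparable with that rate. Itgax on wild-type replicate 2 read 7.98, against 8.32 to 8.33 on the other wild-type arrays. The Itga4 probe set 1450155_at read 4.71 on the same array, against 5.26 to 5.28 on the others. Itga2b on wild-type replicate 1 read 6.48, against the same tied value of 6.19 on each of the others. Groups of 3 arrays were not tested this way.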

How the results depend on the processing

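The count of member probe sets with a limma adjusted p under 0.05 was 0 under all 15 alternatives, and the smallest adjusted p among the 18 was 0.353 without hypomorph replicate 2, 0.486 without hypomorph replicate 3 and 0.566 with array weights (0.605 or more for each gene's leading probe set). The members with an unadjusted p under 0.05 numbered 0 with the replicate block, with 32 added, without low probe sets, with the mean over probe sets, and without hypomorph replicate 1 or wild-type replicate 2, 3 or 4. They numbered 2 of 18 without hypomorph replicate 3, where 1465 of all 22625 probe sets were under that threshold. In the settings with 0 members, the count over all 22625 was 1095 to 1862. It was 1057 of 11313 without low probe sets, and was not counted for the mean over probe sets. Of 134 values of single genes under the alternatives, 121 kept their sign and 13 reversed it. Other than with arrays left out, the reversals were Itgax with array weights (-0.0142) and Itgb1 with the replicate block (0.0327). The block fit takes nothing from wild-type replicate 4, which has no hypomorph array of its number, so that value equals the one without that array. With single arrays left out, the log2 difference ran from -0.0515 to 0.198 for Itgax, -0.122 to 0.621 for Itgam, -0.0732 to 0.131 for Itgal, -0.141 to 0.292 for Itga4, -0.0849 to 0.0824 for Itgb1 and -0.0498 to 0.159 for Itgav, all with both signs. It ran from 0.0499 to 0.160 for Itgb2, 0.00553 to 0.438 for Itgae and -0.217 to -0.0381 for Itgb7, with 1 sign. Over all probe sets the count with an adjusted p under 0.05 was 5 with centring on the median, 5 with trend and robust settings, 5 without low probe sets and 3 with array weights, and 0 to 2 with single arrays left out (1 without hypomorph replicate 1, 2 without hypomorph replicate 2, 1 without wild-type replicate 3). Member probe sets whose groups do not overlap numbered 2 with centring (6.07% of all probe sets), and 0 to 3 with single arrays left out (3 without hypomorph replicate 3 or wild-type replicate 4, 2 without hypomorph replicate 2, 1 without hypomorph replicate 1 or wild-type replicate 1), where the background share is 7.71% to 21.4% (9.00% without wild-type replicate 4). The replicate block changed no member's call and left 0 calls over all probe sets. The correlations of the deviations of same-numbered arrays from their group means were 0.102, 0.0977 and 0.339. Between arrays of other numbers they ran from -0.256 to 0.207, and not every array correlated best with its own number. With so few arrays these values cannot decide if same-numbered arrays share more than a number. The cause of these moves was not tested beyond the smaller groups. The filter on low values left 9 of the 18 member probe sets, without the probe set of Itgal.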
